A study of Homo sapiens with 4 samples.

Results

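The genes described here are the integrins ITGAV, ITGB5 and ITGB1, the focal adhesion genes ILK, PTK2, TLN1, PXN, FERMT2 and RSU1, and the small GTPase gene RHOA, read in a pooled CRISPR-Cas9 knockout screen. They were taken by their symbols from the sgRNA count table, which gave 10 genes with 40 sgRNAs out of 19111 genes measured and 77441 sgRNAs listed. The genes were chosen by their role together with the known change of their sgRNA counts with HQ461 against DMSO, so that comparison is given as a description without a test. A549 cells, an adherent human lung adenocarcinoma line, received the Brunello pool of lentiviral sgRNAs, whose targeting sgRNAs each steer Cas9 to a single gene. After transduction the cells spent 3 weeks either with HQ461, a cytotoxic compound, at 4 µM, or with 0.1% DMSO as vehicle. HQ461 and DMSO were run with 2 replicates each per the labels, which the authors describe as biological. The table has 1 column per condition, so no value below has a replicate error. Whether a column sums both replicates or holds 1 library is not stated. In such a screen the abundance of an sgRNA is read as a measure of how cells with that knockout grew or survived, and sgRNAs that cut no gene, described below, show how far abundance also varies without a knockout. The cell line label cannot be checked by marker genes, because the counts come from genomic DNA.

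Integrins are cell surface receptors made of an alpha and a beta chain that tie the extracellular matrix to the actin cytoskeleton. The alpha V chain encoded by ITGAV pairs with several beta chains, while the beta 5 chain encoded by ITGB5 is known to pair with alpha V alone, and the alpha V beta 5 receptor binds vitronectin. Inside the cell, talin (TLN1) and kindlin-2 (FERMT2) bind the beta chain, integrin-linked kinase (ILK) joins PINCH and parvin in a scaffold to which RSU1 also binds, focal adhesion kinase (PTK2) and paxillin (PXN) carry the signal on, and RHOA drives contraction of actin and myosin. The table names sgRNAs by number, and sgRNA sequences and cut sites were not used here.

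Depth was 16127620 counts for HQ461 and 14428845 for DMSO. Counts were scaled by the median ratio over sgRNAs, under which an sgRNA with no change has 0.694 counts with HQ461 for each count with DMSO. The log2 fold change of an sgRNA is HQ461 over DMSO with 1 added to each normalized count, and that of a gene is the median over its sgRNAs. Over all genes its median was -0.02. A gene is called depleted at a log2 fold change of -1 or below and enriched at 1 or above, which is a rule of size and not a test. The 997 non-targeting control sgRNAs measured, which cut no gene, ran from -1.12 at the 5th percentile to 1.66 at the 95th. Targeting sgRNAs had a median of 110 counts with HQ461 and 152 with DMSO, and controls had 369 and 525.

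sgRNAs against alpha V beta 5 integrin, kindlin-2, ILK and RHOA were scarce after HQ461. Of the 10 genes, 5 were called depleted (RHOA, ITGAV, ITGB5, FERMT2 and ILK) and 0 enriched, beside 7.69% and 9.01% of all genes, and the rule that set these genes together rests on the same comparison. The other members, TLN1, PTK2, ITGB1, RSU1 and PXN, had log2 fold changes between -0.84 and -0.53. As a share of all counts, the 40 sgRNAs held 0.0199% in HQ461 cells (0.0193% to 0.0206%, exact Clopper-Pearson limits at 95%) and 0.0547% in DMSO cells (0.0535% to 0.0559%). These shares are not scaled by the median ratio. Scaled by total counts, the median log2 fold change of all genes was -0.70. A lower share was thus not particular to these sgRNAs. Single sgRNAs ranged from 0 to 747 counts with HQ461, with a median of 25, and from 28 to 721 with DMSO, with a median of 163.5. Counts below 10 were found for 10 of the 40 sgRNAs with HQ461 and for 0 with DMSO. The share of all targeting sgRNAs under 10 was not counted, and their median was also lower with HQ461, at 110 against 152. The intervals of the shares, and those of the ratios below, cover counting error only, since PCR reads are counted without molecular identifiers.

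**Figure D1:**
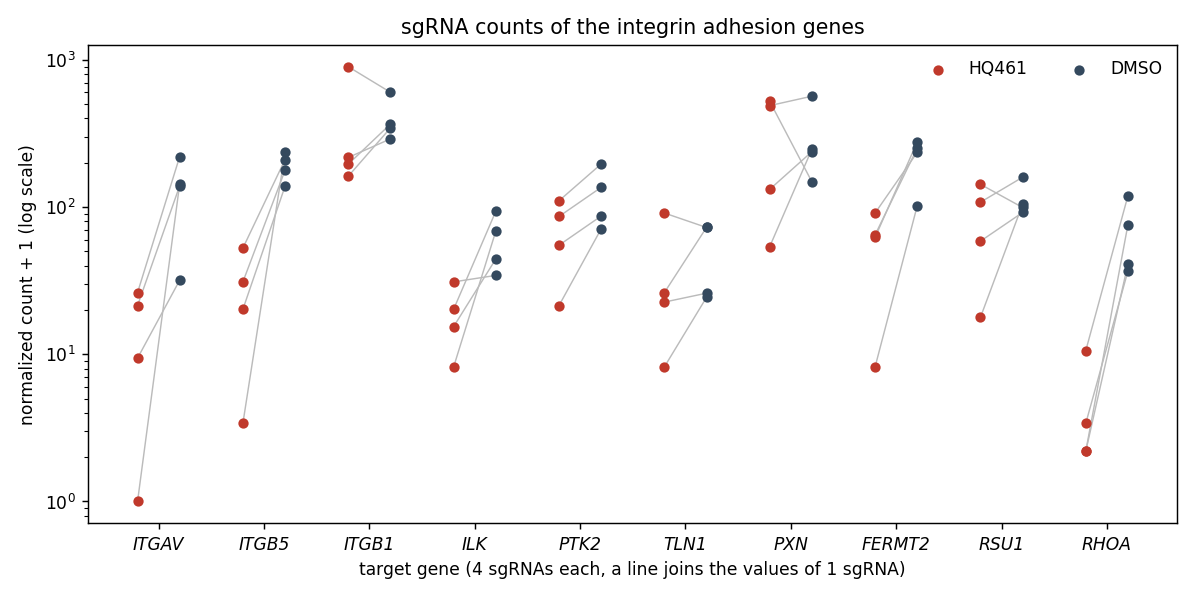
Normalized count plus 1 (log scale) of every sgRNA against each of the 10 genes, with HQ461 in red on the left and DMSO in dark blue on the right of each gene, and a line joining the values of 1 sgRNA. All 4 sgRNAs of RHOA, ITGAV, ITGB5 and FERMT2 are lower with HQ461, whereas the lines of ITGB1, TLN1, PXN and RSU1 run both ways.

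ITGAV and ITGB5, the genes of the alpha V beta 5 receptor, both had lower counts of all their sgRNAs with HQ461. The 4 ITGAV sgRNAs had 21, 0, 17 and 7 counts with HQ461, against 263, 171, 166 and 37 with DMSO. Each was below its DMSO count. After scaling, the highest value with HQ461, 25.2, was still under the lowest with DMSO, 30.8. How many of all genes have such a gap was not counted, here or for the genes below. ITGAV had a log2 fold change of -2.89, a 7.39-fold lower level, and its sgRNAs ran from -7.16 to -1.76. The sgRNA with 0 counts was at least 39.6-fold lower with HQ461 if a count of 0 allows up to 3, without the counting error of DMSO. With that error, the 95% exact interval of the ratio reaches up to 0.0314 times the DMSO level. This sgRNA does not set the median of the gene, which lies between sgRNAs with 21 and 17 counts. Summed over the gene, 45 counts (95% exact Poisson interval 32.8 to 60.2) were found with HQ461 and 637 (588 to 688) with DMSO, a log2 ratio of -3.30 (95% exact interval -3.77 to -2.86).

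The 4 ITGB5 sgRNAs had 2, 43, 25 and 16 counts with HQ461, against 281, 251, 212 and 165 with DMSO. After scaling, the highest value with HQ461, 51.6, was under the lowest with DMSO, 137. ITGB5 had a log2 fold change of -2.65, a 6.26-fold lower level, with the lowest sgRNA at -6.11 and the next at -2.78. The sgRNA with 2 counts had 0.0103 times its DMSO level (95% exact interval 0.00124 to 0.0374). The summed counts, 86 (68.8 to 106) with HQ461 and 909 (851 to 970) with DMSO, gave a log2 ratio of -2.88 (-3.21 to -2.56). The interval of the ITGB5 ratio overlaps that of ITGAV, so the partners cannot be put in order at this depth. Of 19111 genes, ITGAV ranked 31 and ITGB5 ranked 49 from the most depleted end.

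ITGB1 encodes the beta 1 chain, which pairs with many alpha chains including alpha V, and it changed much less. Its 4 sgRNAs had 747, 162, 134 and 180 counts with HQ461, against 721, 438, 412 and 347 with DMSO. The first of these sgRNAs was above its partners in both columns and was the 1 ITGB1 sgRNA with a log2 fold change above 0, at 0.58. The gene had a log2 fold change of -0.66, and 0 of its sgRNAs fell below the 5th percentile of controls. Its summed counts, 1223 with HQ461 and 1918 with DMSO, gave a log2 ratio of -0.12 (-0.23 to -0.02), nearer to 0 than the median because the first sgRNA holds much of the sum. ITGB1 is on chromosome 10 (32900318 to 32958230), ITGAV on chromosome 2 (186590056 to 186680901) and ITGB5 on chromosome 3 (124761948 to 124901418), by RefSeq on GRCh38.p14.

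FERMT2 and TLN1 encode the proteins that bind the beta chain and switch integrins to their active state. The 4 FERMT2 sgRNAs had 51, 53, 75 and 6 counts with HQ461, against 331, 300, 281 and 121 with DMSO. All were lower with HQ461, with a highest scaled value of 90.0 against a lowest of 101 with DMSO. FERMT2 had a log2 fold change of -2.06, a 4.16-fold lower level, with sgRNAs from -3.63 to -1.37, and ranked 154 (chromosome 14, 52857273 to 52951050). The TLN1 sgRNAs had 75, 21, 18 and 6 counts with HQ461, against 86, 86, 30 and 28 with DMSO. Their log2 fold changes were 0.33, -1.47, -0.20 and -1.57, so that 2 of the 4 fell below the 5th percentile of controls and 1 lay above 0. TLN1 had a log2 fold change of -0.84 (chromosome 9, 35696948 to 35732195), and its summed counts, 120 with HQ461 and 230 with DMSO, rest on little depth, with the lowest DMSO sum of the set.

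ILK and RSU1 belong to the scaffold at the cytoplasmic face of integrins. The 4 ILK sgRNAs had 16, 6, 12 and 25 counts with HQ461, against 111, 81, 52 and 40 with DMSO. The sgRNAs with 111, 81 and 52 counts with DMSO were below the 5th percentile of controls, and the fourth, at -0.15, was near no change. ILK had a log2 fold change of -1.87, a 3.65-fold lower level, and ranked 218 (chromosome 11, 6603774 to 6610870). The RSU1 sgRNAs had 89, 14, 118 and 48 counts with HQ461, against 190, 124, 118 and 109 with DMSO. Here 1 sgRNA stood apart at -2.55 while the others were between -0.65 and 0.52, and the gene had a log2 fold change of -0.60 (chromosome 10, 16590611 to 16817424).

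PTK2 and PXN, a kinase and its adaptor, carry signals from clustered integrins. The 4 PTK2 sgRNAs had 91, 71, 45 and 17 counts with HQ461, against 234, 162, 103 and 84 with DMSO. All 4 were lower, by log2 fold changes of -0.83, -0.66, -0.66 and -1.73, and 1 of them lay below the 5th percentile of controls. PTK2 had a log2 fold change of -0.74 (chromosome 8, 140657900 to 141002079), and the smallest SD over sgRNAs of the set, at 0.51. The PXN sgRNAs had 406, 44, 109 and 434 counts with HQ461, against 678, 295, 284 and 177 with DMSO. They disagreed most in direction: 1 was at -2.20 and another at 1.81, the only member sgRNA above the 95th percentile of controls. The PXN log2 fold change was -0.53 (chromosome 12, 120210447 to 120265730), whereas the ratio of its summed counts, 993 with HQ461 and 1434 with DMSO, was -0.0031 on the log2 scale (-0.12 to 0.11).

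RHOA had the lowest log2 fold change of the set, although single sgRNAs against ITGAV and ITGB5 were lower than any against RHOA. The 4 RHOA sgRNAs had 8, 1, 1 and 2 counts with HQ461, against 142, 90, 48 and 43 with DMSO. After scaling, the highest RHOA value with HQ461 was 9.60 and the lowest with DMSO was 35.8. RHOA had a log2 fold change of -3.86, with sgRNAs from -5.11 to -3.44, and ranked 4 of 19111 genes (chromosome 3, 49359145 to 49411976). The summed counts were 12 (6.20 to 21.0) with HQ461 and 323 (289 to 360) with DMSO, a log2 ratio of -4.22 (-5.19 to -3.40). With 1 or 2 counts, single RHOA sgRNAs have wide intervals: the sgRNA with 90 counts with DMSO had 0.0160 times that level (0.000401 to 0.0915), and the one with 43 had 0.0670 times (0.00787 to 0.257). The added count of 1 pulls such log2 fold changes towards 0, and with 5 added the RHOA value was -2.97.

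Ordered by log2 fold change, the genes ran RHOA, ITGAV, ITGB5, FERMT2, ILK, TLN1, PTK2, ITGB1, RSU1 and PXN. In all 9 neighbouring pairs the sgRNA ranges overlap, so no neighbours are parted by the ranges of their sgRNAs. The widest step was 1.03, between ILK and TLN1, and the next was 0.97, between RHOA and ITGAV. Over longer distances ranges do part: 6 members lay wholly above the RHOA range and 3 (ITGB1, PTK2 and TLN1) wholly above the ITGB5 range. The SD over sgRNAs was highest for ITGAV, at 2.39, where the sgRNA with 0 counts sets it, and for ITGB5, at 1.87, where the one with 2 counts does.

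**Figure D2:**
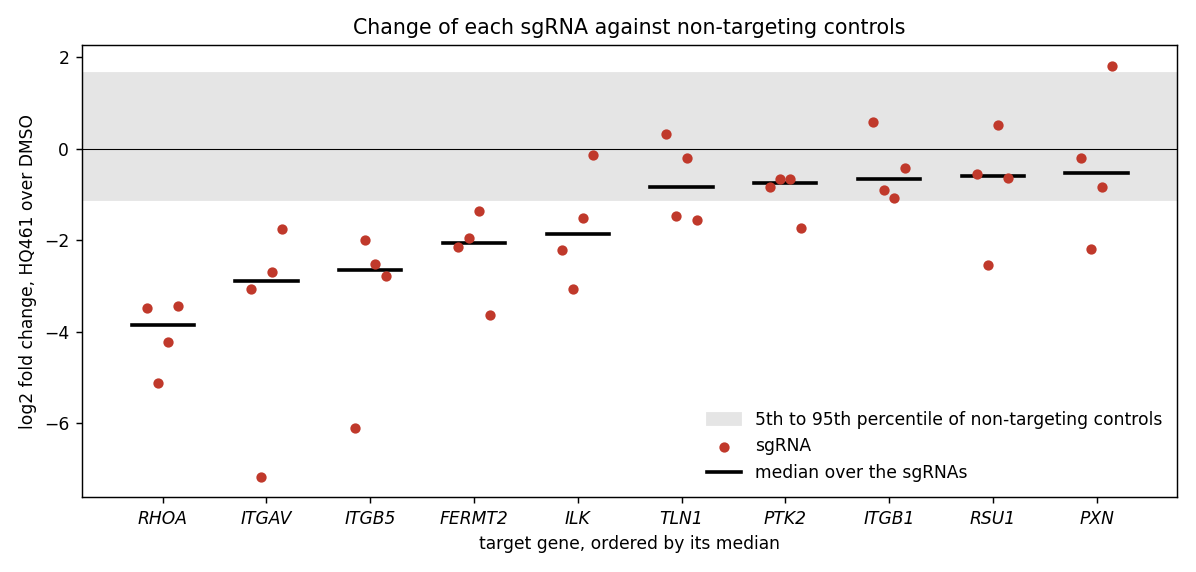
Log2 fold change, HQ461 over DMSO, of each sgRNA (red points) with the median of each gene (black bars), genes ordered from lowest to highest, and the 5th to 95th percentile of non-targeting controls (-1.12 to 1.66) in grey. All sgRNAs of RHOA, ITGAV, ITGB5 and FERMT2 lie below the grey band, and 1 PXN sgRNA lies above it.

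Against the controls, 24 of the 40 sgRNAs lay below the 5th percentile and 1 above the 95th, beside 15.4% and 9.64% of all targeting sgRNAs. Among targeting sgRNAs whose DMSO count was within the range of the members, 14.5% lay below the 5th percentile. These 24 sgRNAs are not spread evenly, with 4 each from ITGAV, ITGB5, FERMT2 and RHOA, 3 from ILK, 2 from TLN1, 1 each from PTK2, PXN and RSU1, and 0 from ITGB1. Having all 4 sgRNAs under that limit was true of 4 of the 10 members and of 0.329% of the genes with 4 sgRNAs, or 62 of 18858. A lower value with HQ461 than with DMSO, whatever its size, was found for 36 of the 40 sgRNAs and for all 4 sgRNAs in 6 members, beside 50.3% of targeting sgRNAs and 9.00% of genes with 4 sgRNAs. The 6 most depleted member sgRNAs (ITGAV, ITGB5 and FERMT2 with 1 each and RHOA with 3) lay below every control, the lowest of which was at -3.47. The share of all targeting sgRNAs below that value was not counted. Controls also had more counts with DMSO, a median of 525 against 163.5 for the member sgRNAs, and low counts give more extreme ratios. Since the members were assembled on this contrast, these shares describe the set and support nothing further.

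**Figure D3:**
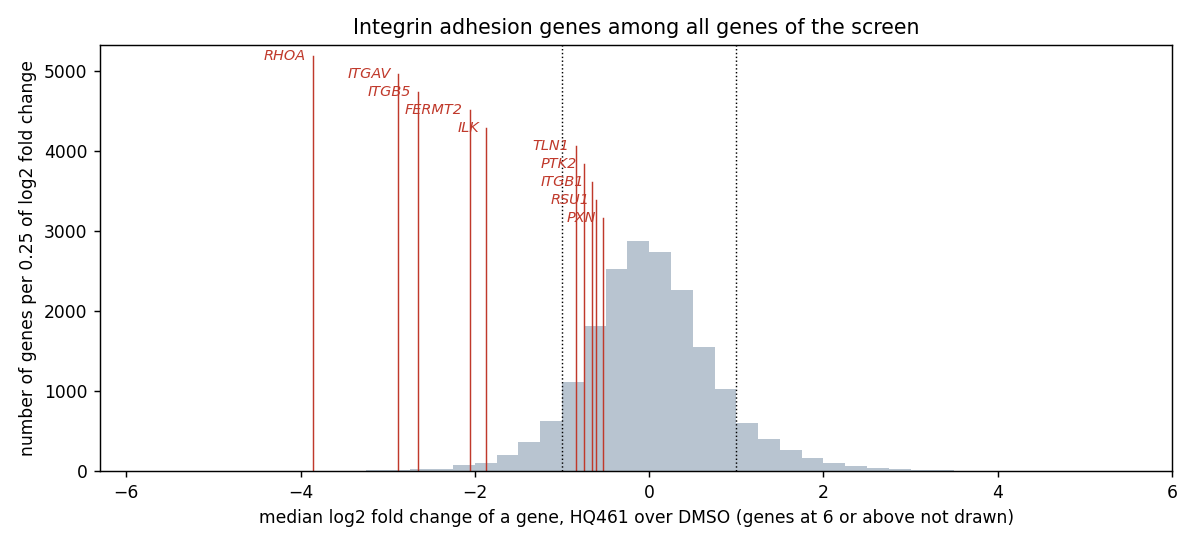
Number of genes by median log2 fold change, HQ461 over DMSO, in steps of 0.25 (blue-grey bars, genes at 6 or above not drawn), with the 10 members as red lines whose heights only separate the names, and dotted lines at -1 and 1. RHOA, ITGAV, ITGB5, FERMT2 and ILK stand in the lower tail, between -3.86 and -1.87, and the other members on the left flank of the main peak.

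The level in DMSO differed widely between members and did not follow the order of depletion. The median normalized count with DMSO was 354 for ITGB1, higher than in 98.1% of genes, and 242 for FERMT2 and 241 for PXN. ITGB5 had 193 and ITGAV 140, higher than in 75.9% and 55.6% of genes. ILK, RHOA and TLN1 were low with DMSO already, at 55.4, 57.5 and 48.3, higher than in 10.3%, 10.8% and 8.61% of genes. With no column of the cells before treatment, a low level with DMSO cannot be told apart from a low share in the starting library. ITGAV, ITGB5 and FERMT2 thus had a large change beside a middle or high level with DMSO, while RHOA had a large change beside a low one.

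In the plane of both columns, the genes nearest to ITGAV in median log2 normalized count were FBXO42, PDZD9 and ZFP36L1, at distances of 0.34, 0.46 and 0.48. Their log2 fold changes were -2.88, -2.96 and -2.65. FBXO42 had summed counts of 136 with HQ461 and 562 with DMSO, a smaller drop than its median. The genes nearest to ITGB5 were DLG5, FNBP4 and TRPV4, at distances of 0.49, 0.55 and 0.61, with log2 fold changes of -2.52, -2.01 and -2.09. Likeness here rests on only the 2 columns that also give the fold change, so alike fold changes follow from the choice. None of these genes is in the adhesion lists.

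The other genes of the adhesion system were read as 7 lists, with 118 genes measured. Together 15 were called depleted and 15 enriched, or 12.7% each, beside 7.69% and 9.01% of all genes, with a median of -0.07 against -0.02 over all genes. Of the 15 enriched genes, 9 are on chromosome 17 or 11q, where 39.6% of all genes were called enriched whatever their function. None of the 10 members lies there. Without those regions 15 of 99 list genes were depleted and 6 enriched, beside 8.30% and 5.62% of genes.

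No other integrin subunit was as low as ITGAV and ITGB5. These genes were chosen with their change known, so the contrast follows in part from that choice. Of 17 other alpha subunits, 2 were called depleted and 2 enriched, with a median of -0.07. The depleted ones were ITGAM, at -1.12, and ITGAD, at -1.06, which pair with beta 2 on leukocytes. ITGA3, at 1.63, is on chromosome 17, and ITGA11, at 1.57, on chromosome 15. Among 6 other beta subunits, 0 were depleted and 2 were enriched, ITGB3 at 1.42 and ITGB4 at 1.11, both on chromosome 17, with a list median of 0.36 that was 0.05 without chromosome 17 and 11q. Beside ITGB1 and ITGB5, the partners of alpha V are ITGB3, ITGB6 and ITGB8, the last 2 named here for that role after their values had been seen. ITGB8 sgRNAs had 217, 279, 126 and 3 counts with HQ461, against 617, 452, 281 and 45 with DMSO, and the gene was at -0.80. ITGB6 sgRNAs had 121, 44, 53 and 985 counts with HQ461, against 108, 76, 74 and 64 with DMSO, and 1 sgRNA alone was far above the others, with the gene at 0.36. Among 18 ligands and matrix genes 0 were depleted and 3 enriched: COL1A1, at 1.78, and VTN, the vitronectin gene, at 1.65, both on chromosome 17, and POSTN, at 1.08.

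The paralogs and partners of talin, kindlin and the ILK scaffold had a median of 0.40, with 1 of 10 called depleted and 2 enriched. PARVA, at -1.08, which encodes the alpha-parvin of that scaffold, was the depleted one. Its sgRNAs had 97, 52, 51 and 35 counts with HQ461, against 195, 164, 153 and 144 with DMSO. After scaling, the highest PARVA value with HQ461, 116, was close to the lowest with DMSO, 120. Of its 4 sgRNAs, 1 was below the 5th percentile of controls. LIMS1, which encodes PINCH1 and was added by its role after its value had been seen, was at 0.36. FERMT3, the kindlin of blood cells, was at 1.94 on 11q with 3 sgRNAs measured, and TLN2, the second talin, at 1.44 on chromosome 15. Of 16 further scaffolds and actin links, TNS3, a tensin, was called depleted at -1.77 and TNS4, on chromosome 17, enriched at 2.09.

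In the list of FAK and SRC signalling, SRC had the lowest value of the 7 lists. SRC, the tyrosine kinase that works with PTK2, had 39, 9, 25 and 2 counts with HQ461, against 161, 110, 69 and 65 with DMSO, a log2 fold change of -2.24. Its sgRNAs were all lower, and 3 of 4 were under the 5th percentile of controls. CSK, which inhibits SRC, had 26, 1, 33 and 14 counts with HQ461, against 109, 95, 68 and 58 with DMSO, and was at -1.49. BCAR1, the adaptor p130Cas, had 92, 1770, 37 and 3 counts with HQ461, against 262, 187, 149 and 18 with DMSO. The gene was at -1.22, although 1 of its sgRNAs was far higher with HQ461. In this list of 23 genes, 5 were depleted, or 21.7%, and 18 were below 0, beside 7.69% and 51.3% of all genes. The list median was -0.36, and GRB2, on chromosome 17, was enriched at 1.26.

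Of 28 small GTPases of the cytoskeleton, their regulators and effectors, 6 were depleted, or 21.4%, and 4 enriched, or 14.3%. Over all genes 7.69% were depleted and 9.01% enriched. The list median was -0.14, or -0.42 without chromosome 17 and 11q, where that of all genes was -0.08. RAC1, the GTPase of lamellipodia, had 3 sgRNAs measured, with 3, 37 and 7 counts with HQ461, against 58, 54 and 48 with DMSO, and was at -2.12. RHOC, a close paralog of RHOA, had 150, 52, 30 and 46 counts with HQ461, against 271, 219, 194 and 186 with DMSO, and was at -1.50. Whether sgRNAs against RHOA and RHOC also match the other gene was not tested. CDC42, the GTPase of filopodia, named after its value had been seen, had 26, 47, 25 and 28 counts with HQ461, against 204, 130, 104 and 89 with DMSO, and was at -1.31. ECT2, an exchange factor for RHOA in cell division, was at -1.45, with 0 to 35 counts per sgRNA with HQ461 and 3 to 123 with DMSO. On the other side were the myosin genes MYL9, at 1.42, and MYH10, at 1.31 on chromosome 17, and the RHOA exchange factor NET1, at 1.27. MYL9 sgRNAs had 169, 142, 394 and 282 counts with HQ461, against 258, 163, 99 and 24 with DMSO. Of these sgRNAs, 2 were above the 95th percentile of controls.

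**Figure D4:**
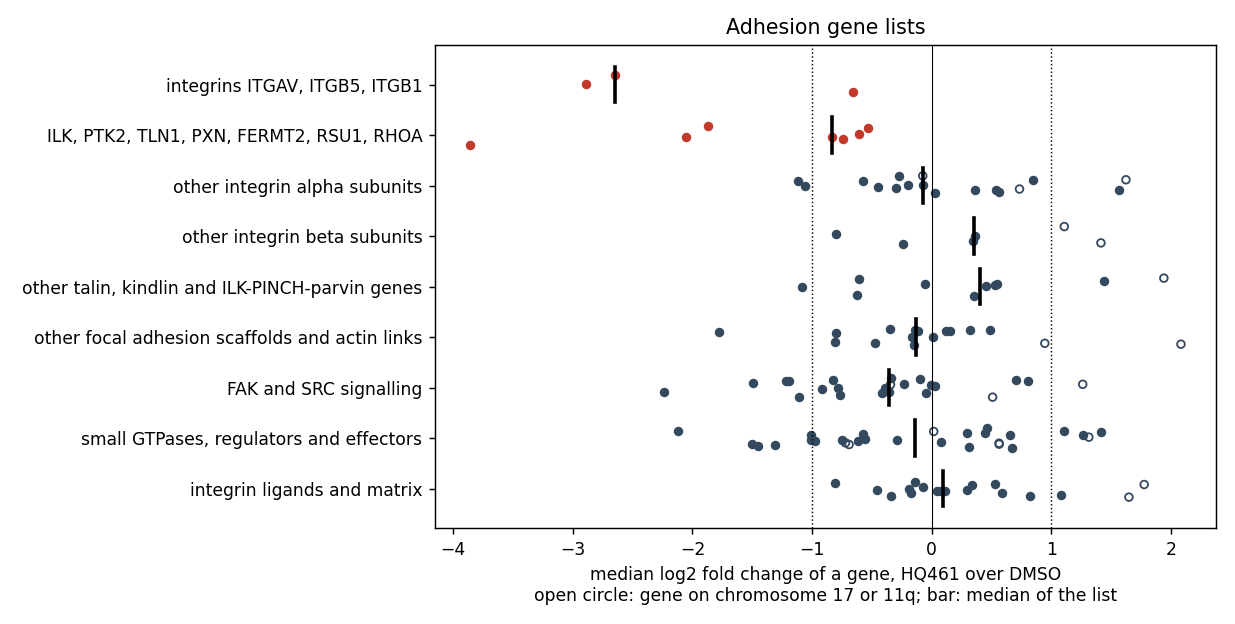
Log2 fold change (HQ461 over DMSO, median over sgRNAs) of each gene in the members (red, upper 2 rows) and in the 7 other adhesion lists (dark blue), with open circles for genes on chromosome 17 or 11q, a bar at the median of each list and dotted lines at -1 and 1. The members reach -3.86, and the lowest gene of the other lists, SRC, is at -2.24. Members and lists were chosen with earlier results of these data known.

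The call depends on the scaling for the members near the limit. Scaled by total counts, all 10 members were at -1 or below, but under that scaling the median of all genes moves to -0.70 and 32.1% of genes are called depleted.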

How the data were processed

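Genomic DNA of A549 cells was amplified by PCR and sequenced, and the authors made sgRNA read counts with MAGeCK 0.5.9.2, deposited without normalization. Both replicates of a condition carry the name of the same column, and whether a column sums both or holds 1 library is not stated. Members and lists were chosen with earlier results of these data known. The 273 sgRNAs without any count were left out, and counts were divided by median-ratio size factors (0.833 for HQ461, 1.20 for DMSO) in Python 3.11.15 with pandas 2.3.3, scipy 1.17.1 and matplotlib 3.10.9. Intervals are exact at 95%. The calculation was tested on simulated data. With 1 column per condition no p-value is given, and the robust rank aggregation of MAGeCK was not run. Named genes are all members, and of each other list up to 3 per direction past the limit with at least 3 sgRNAs on 1 side. Genes were placed by RefSeq symbol or synonym (18753 placed, 358 not). THBS1, in the list of ligands, was not analysed here. Alternatives were scaling by total counts, controls or TMM (edgeR 4.0.16), a pseudocount of 5, a minimum of 30 normalized counts with DMSO, the mean over sgRNAs, removal of the most enriched sgRNA, and removal of chromosome 17 and 11q.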

Additional observations from a re-analysis of the deposited data

How the results depend on the processing

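No paired analysis was possible because the columns carry no replicate number, and leaving out a replicate was not run for the same reason. Every member kept its sign under all 7 alternatives, but most of these could hardly turn it. Total counts and removal of the most enriched sgRNA lower every member, and a pseudocount of 5 pulls values towards 0. Scaling by controls or TMM moved the median of all genes only to 0.017 or -0.050. Log2 fold changes ran from -4.44 to -2.97 for RHOA, -3.67 to -2.69 for ITGAV and -3.35 to -2.47 for ITGB5. They ran from -2.74 to -1.99 for FERMT2 and -2.53 to -1.66 for ILK. The 5 depleted members became 10 with scaling by total counts, which lowers all genes, and were 6 when every gene lost its most enriched sgRNA, where TLN1 joined at -1.47, the median of all genes was -0.32 and 17.4% of them were depleted. The 1 sgRNA above the 95th percentile of controls became 0 with that removal, which takes out this PXN sgRNA. Of the pathway list genes, the 15 depleted became 43 with total counts and 24 with the most enriched sgRNA removed, where 32.1% and 17.4% of all genes were depleted. The 15 enriched became 3 and 9 under these settings, beside 2.72% and 5.21% of all genes, and 6 without chromosome 17 and 11q, where fewer genes are counted. With total counts the medians of the beta subunits, of the talin, kindlin and scaffold genes and of the ligands turned to -0.33, -0.27 and -0.59. With the most enriched sgRNA removed the talin and ligand lists turned to -0.029 and -0.034, and with the mean over sgRNAs the alpha subunits and the scaffolds and actin links turned to 0.075 and 0.0036. The 24 of 40 sgRNAs below the 5th percentile of controls were a count added after seeing the data. With the minimum of 30 normalized counts they became 23 of 38, and with the most enriched sgRNA removed 20 of 30. The other settings gave 24. Scaling moves members and controls alike and the mean over sgRNAs does not enter this count, so these settings could hardly change it. Controls limited to the range of the DMSO counts of the members, 844 of 997, also gave 24. Their 5th percentile was -1.15, beside -1.12 for all controls, so this limit could hardly change the count. Counts under 10 with HQ461 limit the precision of single sgRNAs.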
